A study of Mus musculus with 8 samples.

Results

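Fetal and adult pro-B cells were compared after the same culture and after transduction with an empty vector, 4 arrays of the 8 in the series. All animals were Rag1 null on the BALB/c background. Without this recombinase, B cell development stops at the pro-B stage, and every difference below lies between cells that share the deletion. The fetal liver (FL) group held 2 arrays, each from a sort of pooled liver cells of embryos at gestation day 16 (8 embryos on average). The bone marrow (BM) group also held 2 arrays, each from a sort of the marrow of 2 adult mice. Sorted cells were plated on OP9 stromal cells with IL-7 in 24 wells and transduced the next day, 12 wells with the retrovirus under test and 12 with the control. The control was the pMIG retrovirus without insert for BM and the MSCV retrovirus without insert for FL, so the backbone changed with the tissue. After another 4 days the GFP-positive cells were sorted, and 100 ng of RNA was amplified. The cells had therefore spent days on stroma, and the arrays show cultured, dividing pro-B cells and not cells fresh from either organ. The other 4 arrays (Lin28b in BM and let-7b in FL) enter only as an alternative fit.

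Fetal and adult B cell development differ in known ways. Lin28b, an RNA-binding protein of fetal tissues, blocks maturation of the let-7 microRNAs, and low let-7 permits a set of fetal mRNAs (the Igf2bp family, Hmga2, Arid3a) that let-7 otherwise represses. Fetal B cell progenitors lack terminal deoxynucleotidyl transferase (Dntt), which adds untemplated nucleotides at V(D)J joins in adult cells. The series asks how Lin28b and Arid3a take part in the fetal type of B lymphopoiesis, and the comparison of the empty-vector groups gives the starting difference between the tissues.

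The let-7 family is shown because the target list below is defined by it. All but 1 share the same seed (bases 2 to 8, in capitals), the stretch that pairs with target mRNAs. Of 11 mature sequences of the family in RefSeq, 10 carry GAGGUAG and 1, let-7j, carries GAGGUAU. Mature let-7 itself was not measured here.
let-7a-5p: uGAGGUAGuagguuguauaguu
let-7b-5p: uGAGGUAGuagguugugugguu
let-7d-5p: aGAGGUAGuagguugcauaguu
let-7g-5p: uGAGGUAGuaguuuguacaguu
miR-98-5p: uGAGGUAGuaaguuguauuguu
let-7j: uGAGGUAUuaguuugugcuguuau

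Expression was read as spot intensity on 1-colour Agilent arrays of 44397 spots. A level below is a log2 signal relative to the 75th percentile of its array, a difference is FL minus BM on that log2 scale with limma's standard error, and n is 2 arrays per group throughout. The FL arrays were dimmer, with a 75th percentile of 485 and 271 against 1925 and 2137 intensity units for BM, and a longer bright tail (99th over 75th percentile of 261 and 333 against 117 and 106). Correlations across genes were 0.995 between the BM arrays, 0.977 between the FL arrays and 0.911 to 0.923 across tissues. Replicates lay closer in BM (median SD over genes 0.07) than in FL (0.27). Both BM arrays lay on 1 slide with 1 scan, and the FL arrays on 2 other slides. Tissue, vector backbone, slide and scan therefore cannot be told apart in any value below. In bulk RNA of this kind, fewer cells of a type and less RNA per cell cannot be told apart either.

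The tissues differed in many genes. Of 21076 genes tested, 53.9% were called at an adjusted p below 0.05 by limma, 7619 (36.2%) higher and 3742 (17.8%) lower in FL. With 2 arrays against 2 the calls borrow their error from all genes, since a two-sided exact permutation test of 1 gene cannot go below p = 0.333. Over all genes the median difference was 0.43, and it depended on brightness. With genes ranked by mean level and cut into 10 equal bins, it was 1.31 in the second dimmest bin, 0.01 in the sixth and 0.79 in the brightest. Quantile scaling, which gives the 4 arrays the same distribution, brought the median to -0.02, with 4486 genes (21.3%) higher and 5138 (24.4%) lower, so 46.6% of calls were higher in place of 67.1%. The scalings shared 4458 higher calls (21.2%) and 3653 lower calls (17.3%), and 24 genes were called in opposite directions. In what follows, "rose" and "fell" are used of FL relative to BM and only of genes called the same way under both scalings. A gene was tested only if well above background on at least 2 of the 4 arrays. Genes above it on no FL array (881) or on no BM array (264) thus passed through the other group alone. That rule largely set their direction, so their calls add no support for it. Groups of arrays did not overlap in 83.5% of all genes, so this property marks no gene out.

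**Figure D1:**
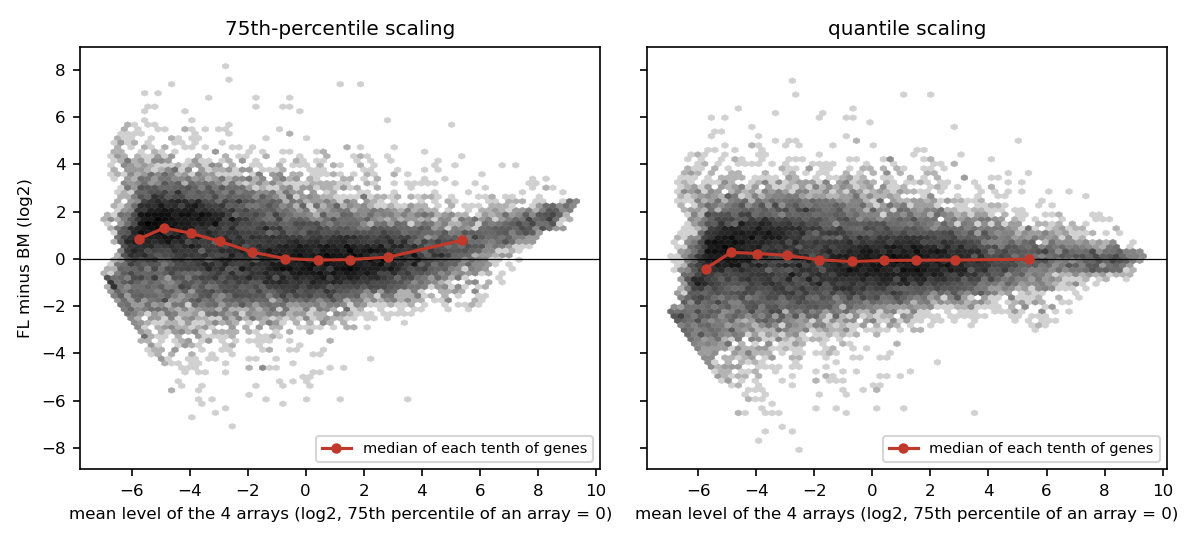
Difference between FL and BM (log2) against the mean level of the 4 arrays (log2, 75th percentile of an array at 0), for 21076 genes under 75th-percentile scaling (left) and with the difference from quantile scaling (right); darker cells hold more genes on a log scale, and red points are medians of 10 bins of genes by level. On the left the medians lie between -0.05 and 1.31, and on the right between -0.42 and 0.27.

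The fetal RNA-binding proteins were mostly higher in FL. Of 13 oncofetal RNA-binding and chromatin genes, 8 rose (61.5% against 21.2% of all genes), 1 fell (7.69% against 17.3%) and 4 did not pass under both scalings. The median difference was 2.10 (1.80 after quantile scaling), where all genes had 0.43 (-0.02). Lin28b lay at -6.58 and -6.32 in BM and at 1.47 and 0.66 in FL (probe at mm9 chr10:45096468-45096527), a difference of 7.51 ± 0.34 (adjusted p = 0.00598). It was well above background on 1 of the 2 BM arrays and on both FL arrays. Its second probe (chr10:45140412-45140471) was above background on both FL arrays and on no BM array. Lin28a, the paralog that acts on let-7 in the same way, rose from -2.80 and -2.63 to -0.70 and -0.52, or by 2.10 ± 0.17 (0.00598). Both paralogs were thus higher in FL.

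The Igf2bp family, which binds and stabilises growth-related mRNAs, had 2 members that rose and 1 that was not called. Igf2bp1 rose from -5.70 and -5.92 to -0.42 and -0.28 (chr11:95824526-95824585; 5.46 ± 0.17, adjusted p = 0.00598). Igf2bp3 rose from -2.74 and -2.57 to 0.87 and 0.32 (3.25 ± 0.26, 0.00598). The third member, Igf2bp2, had values of -3.88 and -3.50 in BM and -3.56 and -4.64 in FL, overlapping groups with a difference of -0.41 ± 0.43 (0.456). With normexp background correction, which here added 50 intensity units to every spot, it differed by 1.02 and was called higher.

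Arid3a, the DNA-binding protein in the title of the series, rose from 2.01 and 1.92 to 3.66 and 3.42 (chr10:79417377-79417436; 1.58 ± 0.18, adjusted p = 0.00751), and its second probe differed by 1.23 ± 0.16. Its paralog Arid3b rose further, from 0.41 and 0.63 to 2.83 and 2.97 (2.38 ± 0.18, 0.00598), with 3 probes between 1.19 and 2.38. Plag1, a zinc finger activator of Igf2, rose by 3.35 ± 0.16 and Sall4, a zinc finger protein of embryonic stem cells, by 2.10 ± 0.16 (both 0.00598). Hmga2, a fetal chromatin protein and a classic let-7 target, fell from -0.85 and -0.81 to -3.07 and -3.48 (chr10:119798739-119798798; -2.44 ± 0.21, 0.00598). Hmga1 differed by 1.80 ± 0.24 (0.00926) at 75th-percentile scaling and by 0.38 after quantile scaling, where it was not called.

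**Figure D2:**
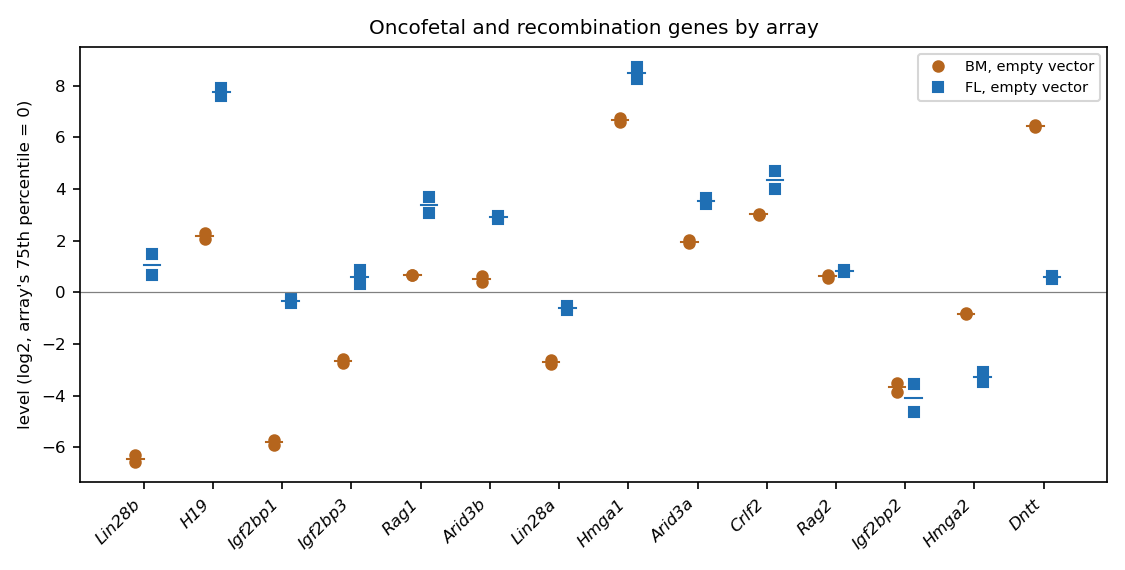
Level of 14 genes of the study's question on each array (log2, the array's 75th percentile at 0), BM as brown circles and FL as blue squares, with a bar at each group's mean. Lin28b rises from below -6 to near 1 and Dntt falls from above 6 to below 1, while the groups overlap for Igf2bp2.

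The let-7 targets as a whole showed no common direction. Of 53 measured, 13 rose (24.5% against 21.2% of all genes) and 13 fell (24.5% against 17.3%). Their median was 0.07, below the 0.43 of all genes (-0.15 and -0.02 after quantile scaling). The risers were led by the oncofetal genes above, with Lin28b, Igf2bp1, Plag1 and Igf2bp3 at the top. Those that fell include genes of growth and division. Cdk6, a G1 kinase, fell from -1.51 and -1.41 to -4.11 and -5.24 (-3.21 ± 0.43, adjusted p = 0.00956; above background on 1 FL array) and so did Ccnd1, which encodes cyclin D1 (-2.55 ± 0.30, 0.00791). Gatm, of creatine synthesis, was above background on no FL array and was at least 10.1-fold lower (0.00598; a difference of -1.21 with normexp background correction), the BM mean being set against the lowest signal above background on each FL array.

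Of 20 genes of let-7 processing and silencing, 5 rose (25% against 21.2% of all genes) and 2 fell (10% against 17.3%). Their median was 0.06, below the 0.43 of all genes (-0.05 and -0.02 after quantile scaling). Apart from both Lin28 genes, Khsrp, which promotes let-7 maturation, rose from 2.54 and 2.41 to 4.87 and 5.53 (2.73 ± 0.28, adjusted p = 0.00701; 0.73 ± 0.17 by its second probe), Ago4 by 1.54 ± 0.15 (0.00668) and Dis3l2, the nuclease that degrades tailed pre-let-7, by 1.10 ± 0.16 (0.0111). Dgcr8, partner of Drosha in the nucleus, fell from 1.15 and 1.07 to -0.36 and -0.56 (-1.57 ± 0.17, 0.00717). Among the genes named, and not over the list as a whole, a gene that promotes let-7 maturation and genes that oppose it were both higher in FL.

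**Figure D3:**
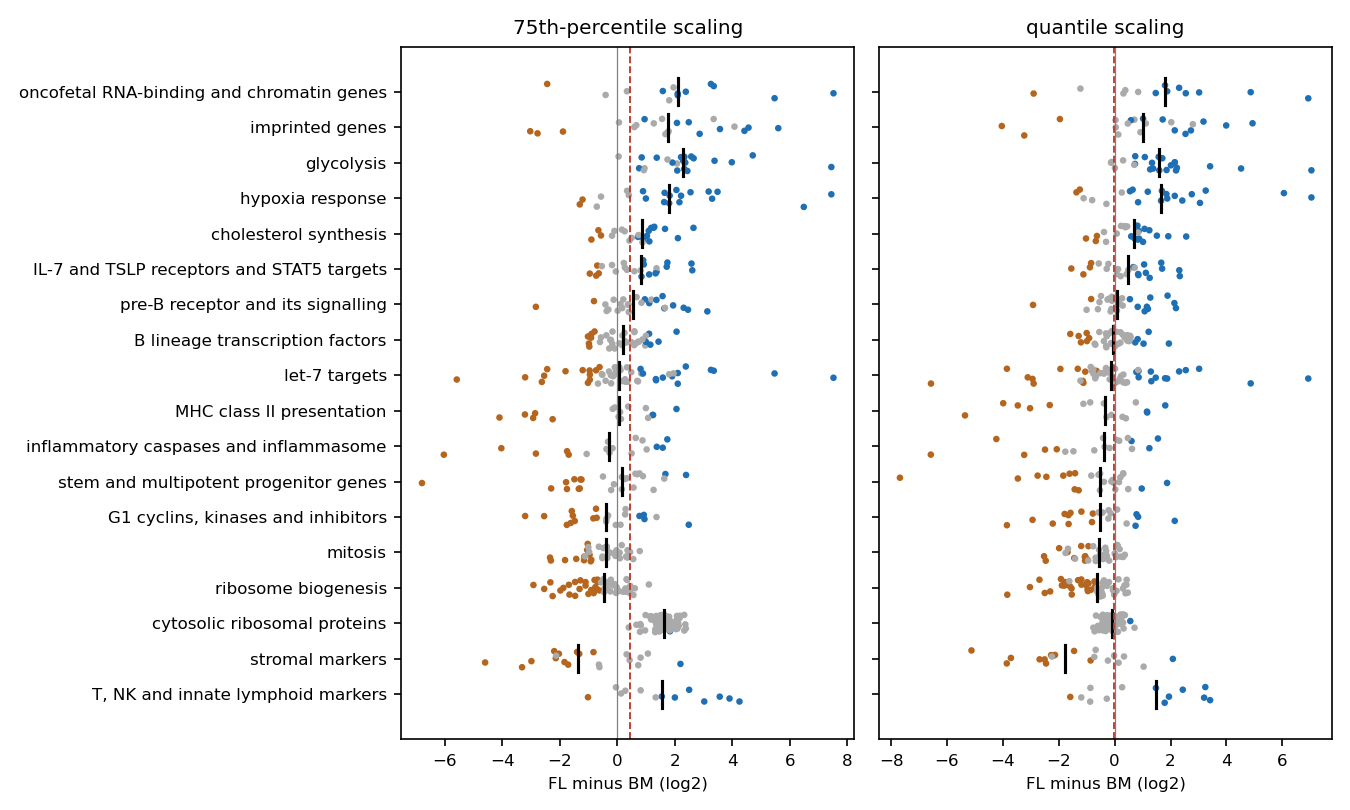
Difference between FL and BM (log2) of each measured member of 18 gene lists, under 75th-percentile scaling (left) and quantile scaling (right); blue and brown points were called higher and lower under both scalings, grey points were not, black bars are list medians and the red dashed line is the median of all genes (0.43 and -0.02). Glycolysis and hypoxia genes lie to the right of the line under both scalings, stromal markers and ribosome biogenesis genes to the left, and the 75 ribosomal protein genes move from 1.61 to -0.08.

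H19, the imprinted noncoding RNA of fetal tissues, was measured by a pair of probes that did not give the same size of difference, and both sequences are shown for that reason. The first probe rose from 2.28 and 2.06 to 7.60 and 7.92 (5.59 ± 0.20, adjusted p = 0.00598). The second differed by 2.01 ± 0.16. Both probes are matched to H19 by the array design. Which transcript forms each reads was not tested.
H19 probe at mm9 chr7:149761492-149761551, difference 5.59: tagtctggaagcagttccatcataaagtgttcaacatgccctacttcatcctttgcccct
H19 probe at mm9 chr7:149762417-149762476, difference 2.01: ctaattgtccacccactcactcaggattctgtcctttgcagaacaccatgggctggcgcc

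Imprinted genes, which are expressed from the copy of 1 parent and many of which control fetal growth, rose more often than they fell. Of 21 measured, 9 rose (42.9% against 21.2% of all genes) and 3 fell (14.3% against 17.3%), with a median of 1.74 (1.02 after quantile scaling). Grb10, an inhibitor of insulin and IGF receptor signalling, rose from -4.15 and -4.32 to 0.30 and 0.07 (4.42 ± 0.18, adjusted p = 0.00598). Cdkn1c, which encodes the cell cycle inhibitor p57, rose from -3.02 and -3.07 to -0.54 and -0.58 (2.48 ± 0.15, 0.00598). Snrpn and Igf2r, the receptor that clears IGF2, rose by 3.57 ± 0.17 and 1.74 ± 0.15. The 4 probes of Plagl1, a zinc finger protein, disagreed. They differed by 2.86 and 1.97, and by -1.15 and -0.76 for the 2 that were not above background on all arrays. No direction is therefore given for Plagl1, although by its tested probe it counts among the 9. Igf2 itself, the neighbour of H19, was above background on no BM array and had a difference of 3.35 ± 1.04 that did not pass (0.0586). The 3 that fell, named after their values were seen, were the noncoding RNAs Kcnq1ot1 (-1.90 ± 0.17) and Meg3 (-2.78 ± 0.79) and the translational regulator Impact (-3.03 ± 0.37). Meg3 was above background on 1 FL array, its FL values of -4.76 and -6.70 lay far apart, and its difference was 0.23 with normexp background correction and 0.14 by its other probe.

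Dntt was the fourth largest fall among genes above background on all arrays. It lay at 6.48 and 6.41 in BM, among the brightest genes there, and at 0.51 and 0.64 in FL (chr19:41133936-41133995; -5.87 ± 0.16, a 58.5-fold lower signal, adjusted p = 0.00598). FL cells still gave a Dntt signal well above background on both arrays. Around Dntt, the genes of V(D)J recombination and end joining divided. Of 22 measured, 3 rose (13.6% against 21.2% of all genes) and 5 fell (22.7% against 17.3%). Lig4, the ligase of end joining (-1.71 ± 0.26, 0.0122), and Hmgb1, a cofactor of the recombinase (-1.03 ± 0.16, 0.0126; other probes -0.57 to -1.92), fell. Nhej1, a scaffold for Lig4, rose by 1.33 ± 0.22 (0.0143), though it was not called with probe GC content centred (below). Rag2, the partner of Rag1, had values of 0.57 and 0.66 in BM and 0.84 and 0.78 in FL (0.20 ± 0.16, 0.334), while its other probe differed by 1.03 ± 0.18. The Rag1 probe rose from 0.66 and 0.65 to 3.69 and 3.07 (chr2:101478813-101478872; 2.72 ± 0.26, 0.00661), and a second probe differed by 4.18 ± 0.18. All groups carry the Rag1 null allele. Whether either probe lies in the deleted stretch is not known here, so the signal is no check of the genotype.

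Of 36 transcription factors that set B lineage identity, 5 rose (13.9% against 21.2% of all genes) and 6 fell (16.7% against 17.3%). Irf4, which ends the pre-B proliferative phase, rose from 1.75 and 1.68 to 3.61 and 3.92 (2.06 ± 0.19, adjusted p = 0.00619). Foxo1, which drives Rag and Il7r transcription, rose by 1.43 ± 0.18 (0.00875) and Id3, an inhibitor of E proteins, by 1.10 ± 0.17 (0.0121; not called with probe GC content centred). Irf8 (-0.99 ± 0.15, 0.012) and Myb, a factor of progenitor growth (-0.98 ± 0.16, 0.013), fell. All 11 B lineage markers on the array were measured, 4 rose (36.4% against 21.2% of all genes) and none fell. With probe GC content centred, 3 of the 11 were higher and 2 lower. Pax5 and Ebf1, defining factors of the lineage, were measured in both groups and differed by -0.23 and -0.57, neither called, although another Pax5 probe was called lower (-1.42).

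Of 26 components of the pre-B receptor and its signalling, 9 rose (34.6% against 21.2% of all genes) and 2 fell (7.69% against 17.3%). With probe GC content centred, 8 were higher and 5 lower, with a median of 0.15. Cd79a and Cd79b, the signalling chains of the receptor, rose from 0.49 and 0.47 to 2.32 and 2.51 (1.94 ± 0.16, adjusted p = 0.00598) and from 6.09 and 6.09 to 8.02 and 8.76 (2.30 ± 0.30, 0.00921). Pik3cd, the PI3 kinase subunit of lymphocytes, rose by 2.45 ± 0.22 (0.00603) and its adaptor Pik3ap1 by 1.63 ± 0.19 (0.00775). Neither Cd79b nor Pik3ap1 was called with probe GC content centred. Ighm, the mu heavy-chain constant region, rose from a low level of -5.97 and -6.17 to -3.23 and -2.66 (3.13 ± 0.26, 0.00598), in cells that cannot rearrange a heavy chain. Enpep, the aminopeptidase known as BP-1, fell from 2.95 and 2.82 to 0.18 and -0.09 (-2.84 ± 0.18, 0.00598).

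The IL-7 and TSLP receptor pathway, which supports pro-B cells in this culture, had 10 risers (43.5% against 21.2% of all genes) and 4 fallers (17.4% against 17.3%) among 23. Il7r rose from 1.76 and 1.37 to 2.56 and 2.79 (1.10 ± 0.22, adjusted p = 0.0205), and Crlf2, the TSLP receptor chain used more in fetal progenitors, from 3.04 and 2.99 to 3.98 and 4.70 (1.33 ± 0.30, 0.0267). Jak3, the kinase of the shared gamma chain, rose by 1.71 ± 0.20 (0.00794). Among targets of STAT5, the survival kinases Pim2 and Pim1 rose by 2.60 ± 0.20 and 1.36 ± 0.20 (Pim1 not called with probe GC content centred), and the anti-apoptotic Bcl2 and Bcl2l1 by 1.74 ± 0.16 and 2.57 ± 0.31. In the Bcl2 family, 5 of 14 rose (35.7% against 21.2% of all genes) and 2 fell (14.3% against 17.3%). With probe GC content centred, 3 were higher and 3 lower, with a median of -0.03. Bmf, a pro-apoptotic member, had the largest difference, from -1.84 and -1.81 to 2.33 and 2.93 (4.45 ± 0.26, 0.00598). The 2 that fell were the anti-apoptotic Bcl2l2 (-1.95 ± 0.20) and the pro-apoptotic Bid (-1.15 ± 0.18). Members that protect cells and members that kill them were thus found among the risers and among the fallers.

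Genes of later B cell stages gave 9 risers (30% against 21.2% of all genes) and 8 fallers (26.7% against 17.3%) among 30. Cd2 rose from 0.76 and 0.74 to 4.45 and 5.49 (4.22 ± 0.40, adjusted p = 0.00642), and the tetraspanin Cd37 by 1.90 ± 0.20 (0.00729). The costimulatory receptor Cd40 (-3.11 ± 0.21, 0.00598; above background on 1 FL array; -0.38 and not called with normexp) and the inhibitory receptors Cd72 (-1.78 ± 0.17) and Fcgr2b (-1.78 ± 0.17) fell, and Fcmr, the IgM Fc receptor, was at least 5.97-fold lower with no FL array above background, but was not called with normexp (-0.23).

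Of 25 stem and multipotent progenitor genes, 2 rose (8% against 21.2% of all genes) and 9 fell (36% against 17.3%). The median of the list was 0.15 (-0.52 after quantile scaling). The 9 include genes, Hoxb4 and Procr among them, that were above background on no FL array. These passed the filter through BM alone, so their direction adds no support. Hoxb4, a homeobox gene of stem cell self-renewal, lay at -0.47 and -0.51 in BM, was above background on no FL array, and was at least 23.9-fold lower in FL (adjusted p = 0.00598; a difference of -2.43 with normexp). Slamf1, which encodes CD150 (-1.76 ± 0.17, 0.00641; -0.14 and not called with normexp), and Egr1 (-1.29 ± 0.15, 0.00791) fell. Procr, the endothelial protein C receptor of stem cells, was at least 2.02-fold lower (0.008), but was called higher, by 0.81, with normexp background correction. Flt3, the receptor of multipotent and lymphoid progenitors, rose from -3.84 and -3.80 to -1.51 and -1.36 (2.39 ± 0.16, 0.00598).

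Several genes of MHC class II antigen presentation were lower in FL. Of 16 measured, 3 rose (18.75% against 21.2% of all genes) and 5 fell (31.25% against 17.3%). H2-Ab1, the beta chain that pairs with H2-Aa, was not called, with values of 3.86 and 3.91 in BM and 3.48 and 3.96 in FL and a difference of -0.16 ± 0.23 (adjusted p = 0.57). H2-Eb1 fell from 2.93 and 2.93 to -0.25 and 0.25 (-2.93 ± 0.23, adjusted p = 0.00598), Cd74, the invariant chain, from 2.84 and 2.86 to 0.57 and 0.62 (-2.25 ± 0.15, 0.00598), and H2-DMa, of the peptide-loading complex, from -1.32 and -1.06 to -4.04 and -4.07 (-2.86 ± 0.18, 0.00598). H2-Aa was at least 5.88-fold lower (0.00598) and H2-DMb1, named after its values were seen, at least 7.8-fold lower (0.0192), with no FL array above background for either. Both passed the filter through BM alone. With normexp they differed by -0.46 and -0.61, and neither was called. Ifi30, a lysosomal reductase, rose by 2.05 ± 0.19 (0.0062) and Rfxank, a subunit of the factor that drives class II promoters, by 1.22 ± 0.18 (0.0111), although Rfxank was not called with probe GC content centred.

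Inflammatory caspases showed some of the largest falls of all. Casp4 lay at 2.04 and 2.34 in BM and at -4.35 and -3.35 in FL (chr9:5336658-5336717; -6.04 ± 0.40, a 65.7-fold lower signal, adjusted p = 0.00598). Casp1, the enzyme that matures IL-1 and IL-18, fell from 2.35 and 2.38 to -1.71 and -1.63 (-4.04 ± 0.15), and its substrate Il18 from -0.34 and -0.24 to -2.94 and -3.32 (-2.84 ± 0.20, both 0.00598). The DNA sensor Aim2 fell as well (-1.75 ± 0.15, 0.006). In all, 5 of 18 genes of the inflammasome list fell (27.8% against 17.3% of all genes) and 3 rose (16.7% against 21.2%). The risers included the endosomal DNA receptor Tlr9 (1.57 ± 0.16, 0.00692). Of 37 interferon response genes, 1 rose (Gbp2, 2.20 ± 0.16; 2.70% against 21.2% of all genes) and 4 fell (10.8% against 17.3%). The FL arrays lay apart over the whole list, with a median level of 1.04 and -0.92, against 0.80 and 1.12 in BM. For Ifi44, the largest of these, BM values were 2.72 and 2.99 and FL values -1.04 and -3.97 (-5.36 ± 1.06, 0.0199). The FL arrays lay far apart for this gene as well.

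**Figure D4:**
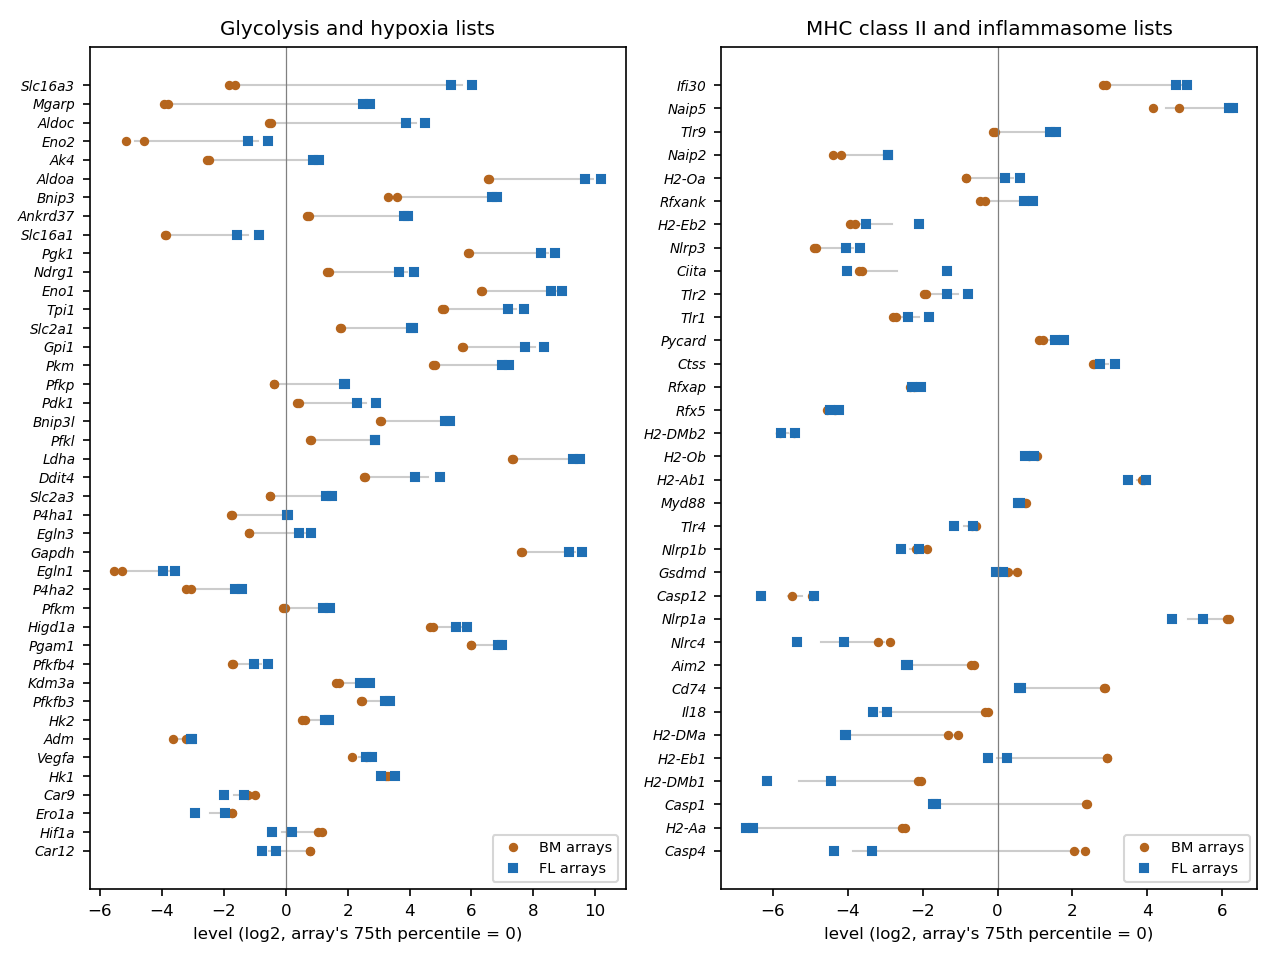
Level on each array (log2, the array's 75th percentile at 0) of the members of the glycolysis and hypoxia lists (left) and of the MHC class II and inflammasome lists (right), BM arrays as brown circles, FL arrays as blue squares, and grey lines joining the means. Slc16a3 and Mgarp have the widest rises on the left, and Casp4, H2-Aa and Casp1 the widest falls on the right.

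Glycolysis was the list with the most uniform rise. Of 23 genes measured, 18 rose and none fell (78.3% against 21.2% of all genes), with a median of 2.28 (1.58 after quantile scaling, against -0.02). Slc16a3, the lactate exporter MCT4, had the largest difference of any gene above background on all arrays, from -1.85 and -1.65 to 5.35 and 6.03 (7.44 ± 0.29, adjusted p = 0.00598). Along the pathway, Pfkl, a phosphofructokinase, rose by 2.08 ± 0.15, Aldoa and Aldoc, the aldolases, by 3.38 ± 0.24 and 4.71 ± 0.27, and Eno1 and Eno2, the enolases, by 2.43 ± 0.19 and 3.98 ± 0.34 (all 0.00598). Ldha, lactate dehydrogenase and among the brightest genes, differed by 2.07 ± 0.17 but by 0.30 after quantile scaling, where it was not called.

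Targets of the hypoxia response, the programme driven by HIF, rose with them. Of 21 measured, 15 rose (71.4% against 21.2% of all genes) and 2 fell (9.52% against 17.3%). The median was 1.80 (1.66 after quantile scaling). Mgarp, a mitochondrial protein, rose from -3.93 and -3.81 to 2.73 and 2.50 (6.48 ± 0.18, adjusted p = 0.00598). Bnip3 and Bnip3l, mitophagy receptors, rose by 3.29 ± 0.19 and 2.16 ± 0.16, Ankrd37 by 3.17 ± 0.16, Ak4, a mitochondrial adenylate kinase, by 3.48 ± 0.17, and P4ha1, a collagen prolyl hydroxylase, by 1.81 ± 0.15 (all 0.00598). The 2 that fell, named after their values were seen, were Hif1a itself, from 1.16 and 1.05 to 0.22 and -0.43 (-1.21 ± 0.28, 0.0276; not called with probe GC content centred), and the carbonic anhydrase Car12 (-1.31 ± 0.22, 0.0141). Slc16a3 and Pdk1 are in both lists. With probe GC content centred, 18 glycolysis genes were higher and 1 lower, and 14 hypoxia genes higher and 1 lower.

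Promoters of hypoxia genes that moved together are shown with the core of the element that HIF binds, ACGTG or CACGT on the other strand, in capitals. The windows are the 250 bases before the start in RefSeq (GRCm38.p6). The Slc16a3 window holds 2 matches, the Mgarp window 1, and the Bnip3 window 2 that overlap.
Slc16a3, chr11:120948817-120949066, plus strand: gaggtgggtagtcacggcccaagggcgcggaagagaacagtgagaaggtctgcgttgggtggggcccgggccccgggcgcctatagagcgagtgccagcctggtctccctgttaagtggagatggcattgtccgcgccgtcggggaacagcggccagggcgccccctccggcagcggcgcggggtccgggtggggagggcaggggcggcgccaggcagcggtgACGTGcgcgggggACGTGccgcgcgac
Mgarp, chr3:51396548-51396797, minus strand: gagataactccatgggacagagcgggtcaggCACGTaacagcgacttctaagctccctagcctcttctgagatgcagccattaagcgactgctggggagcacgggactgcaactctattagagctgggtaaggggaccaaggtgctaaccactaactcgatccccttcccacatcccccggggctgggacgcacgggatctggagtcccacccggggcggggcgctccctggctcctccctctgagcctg
Bnip3, chr7:138909507-138909756, minus strand: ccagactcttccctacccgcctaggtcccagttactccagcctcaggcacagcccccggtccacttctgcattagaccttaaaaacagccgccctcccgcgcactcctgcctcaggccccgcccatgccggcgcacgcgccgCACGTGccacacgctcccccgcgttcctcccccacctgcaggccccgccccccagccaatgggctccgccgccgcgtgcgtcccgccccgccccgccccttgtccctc

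The motif occurred in at least 1 window of 14 of the 19 hypoxia genes with a promoter in the table (73.7%) and of 11 of the 22 glycolysis genes (50%), against 18.5% of the 27025 genes of the table and 23.4% of the 12178 tested genes found in it. Within the hypoxia list it was found in 10 of 13 risers and in 3 of 4 genes that were called under neither direction, so its presence did not separate them. Over all tested genes, 21.7% of risers, 25% of fallers and 23.4% of the others held it. A match is a description of the letters and not of binding. The hypoxia list was written as targets of the HIF programme, so its larger share is no result of these arrays.

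Of 23 genes of cholesterol synthesis, 12 rose (52.2% against 21.2% of all genes) and 3 fell (13% against 17.3%). The median was 0.87 (0.71 after quantile scaling). Mvd and Mvk, of the mevalonate pathway, rose by 2.64 ± 0.25 (adjusted p = 0.00653) and 1.65 ± 0.26 (0.0122), Fdft1, which makes squalene, by 1.28 ± 0.17 (0.00929), Sqle, which oxidises it, by 1.09 ± 0.16 (0.0107), and Insig1, a sterol sensor, by 2.10 ± 0.31 (0.0114).

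Genes of growth and division were seldom higher in FL. In ribosome biogenesis 23 of 51 genes fell and none rose (45.1% against 17.3% of all genes), with a median of -0.46 (-0.63 after quantile scaling). Nop58, a core protein of the methylation snoRNPs, fell from 4.31 and 4.23 to 2.33 and 1.54 (-2.33 ± 0.32, adjusted p = 0.00991) and so did the nucleolar GTPase Gnl3 (-2.25 ± 0.21, 0.00628), Tsr1, of small subunit assembly (-1.88 ± 0.17, 0.00601), and Wdr12 (-1.47 ± 0.16, 0.00709). The 75 cytosolic ribosomal protein genes depended on scaling instead. At 75th-percentile scaling 73 were called higher with a median of 1.61, and after quantile scaling 1 of them, Rps4x, was still called and the median was -0.08. No direction is given for them.

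In mitosis 11 of 38 genes fell (28.9% against 17.3% of all genes) and none rose. Among the fallers were the condensin Smc2 (-2.35 ± 0.31, adjusted p = 0.00921; not called with probe GC content centred) and the kinesins Kif23 (-1.43 ± 0.19) and Kif11 (-1.04 ± 0.15). In DNA replication 11 of 44 fell (25% against 17.3% of all genes) and 1 rose (2.27% against 21.2%). Pcna, the polymerase clamp, fell from 6.24 and 6.23 to 5.42 and 5.18 (-0.93 ± 0.17, 0.0174), as did Orc6 (-1.69 ± 0.21, 0.00856), and the single riser was the polymerase delta subunit Pold2 (1.04 ± 0.16, 0.0123). Among G1 cyclins, kinases and inhibitors, 4 of 22 rose (18.2% against 21.2% of all genes) and 10 fell (45.5% against 17.3%). E2f3 fell by 1 probe (-1.62 ± 0.17, 0.00725) and was not called by the other (-0.28 ± 0.15, 0.185), and Cdkn2a, of the senescence locus, fell from 0.59 and 0.36 to -0.99 and -1.03 (-1.49 ± 0.17, 0.00776), while the inhibitor Cdkn1c rose, as given above. Both promoters and inhibitors of the cycle were among the fallers.

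Histones and small RNAs rose over a wide front. Of 46 replication-dependent histone genes 29 rose (63% against 21.2% of all genes) and none fell, with a median of 2.64 (1.90 after quantile scaling). Of 13 small structural RNAs (snRNA, snoRNA, RNase P, RNase MRP and telomerase RNA, a class chosen after values were seen) 9 rose (69.2% against 21.2% of all genes) and none fell. Of 11 host genes of snoRNAs, chosen likewise, none rose and 6 fell (54.5% against 17.3%). Most mRNAs of these histone genes and the small RNAs carry no long poly(A) tail. Olfactory and vomeronasal receptors, a class chosen likewise that lymphocytes do not need, had 88 risers (33.6% against 21.2% of all genes) and 1 faller (0.382% against 17.3%) among 262. Of 1367 such receptors on the array, 1105 were not tested. Those measured were dim, with a median level of -5.71 in BM and -3.98 in FL. Some were above background on no BM array and passed the filter through FL alone. Whether RNA quality or the amplification has a part in these classes was not tested.

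Probe composition moved with the difference as well. Across genes, which are not independent, the difference had a Spearman correlation of 0.37 with the GC content of the tested probe (0.33 after quantile scaling). The median was -0.26 at 30 to 35% GC, 0.57 at 40 to 45% and 1.98 above 55%, where 63.8% of genes rose and none fell. With each array's median made equal within GC bins after quantile scaling, 3940 genes (18.7%) were higher and 4742 (22.5%) lower. Histone probes had a median GC content of 50.8% against 43.3% for all genes, and with the bins centred 25 of 46 histone genes were higher and 5 lower, with a median of 1.44. The part of probe composition in the differences was not tested further.

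**Figure D5:**
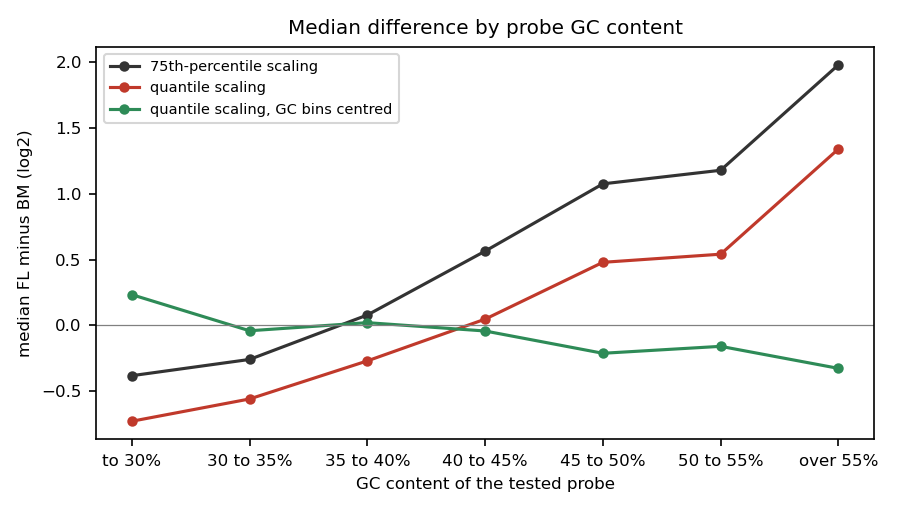
Median difference between FL and BM (log2) of genes grouped by the GC content of their probe, for 3 scalings of the 4 arrays. The median climbs from -0.38 to 1.98 under 75th-percentile scaling and from -0.73 to 1.34 under quantile scaling.

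Markers of other cells did not all point one way. Stromal markers were the clearest group, with 1 riser (5% against 21.2% of all genes) and 11 fallers (55% against 17.3%) among 20. The median was -1.37. Their summed level (log2) was 5.02 and 5.18 in BM and 3.87 and 4.22 in FL. Col1a2, a collagen chain, fell from 1.77 and 2.05 to 0.03 and -0.50 (-2.15 ± 0.26, adjusted p = 0.00844) and so did Timp1, an inhibitor of matrix proteases (-3.32 ± 0.33, 0.00672), the smooth muscle actin Acta2 (-2.04 ± 0.19, 0.00629) and the chemokine Ccl2 (-4.60 ± 0.20, 0.00598). Col1a2 and Acta2 were not called in a fit over all 8 arrays with the slide as a block (0.0599 and 0.0547). The riser was Bgn, a matrix proteoglycan (2.19 ± 0.36, 0.0138). Pdgfra and Vcam1, counted among the fallers, were each above background on 1 FL array. With normexp their differences turned positive (0.18 and 0.23, neither called). With probe GC content centred, 2 of the 20 were higher and 9 lower, with a median of -1.44. Dcn, Lum, Postn and Col5a2 were above background on fewer than 2 arrays. The cultures held OP9 stroma, and the part of stromal RNA in the falls was not tested.

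Hepatocyte markers, checked because the FL cells came from liver, gave 4 risers among 8 measured (50% against 21.2% of all genes). Another 12, including albumin (Alb) and transthyretin (Ttr), were above background on fewer than 2 arrays. Fga, a fibrinogen chain, rose from -6.01 and -5.88 to -2.15 and -2.02 (3.86 ± 0.16, adjusted p = 0.00598), and Apoa2 by 2.44 ± 0.33 (0.00965). With probe GC content centred, 2 of the 8 were higher and 2 lower. Their summed level was 0.05 and 0.25 in BM and 1.95 and 2.50 in FL. Of 13 measured T, NK and innate lymphoid markers 7 rose (53.8% against 21.2% of all genes) and 1 fell (7.69% against 17.3%). The summed level of these 13 was 1.30 and 1.38 in BM and 3.42 and 4.03 in FL. Cd3e, a chain of the T cell receptor complex, rose from -1.51 and -1.37 to 1.59 and 2.64 (3.56 ± 0.40, 0.00764), Cd4 by 2.49 ± 0.27 (0.00728; 1.11 ± 0.35 by its other probe, 0.0591), Zbtb16, the innate lymphoid factor PLZF, by 3.90 ± 0.18 (0.00598), and Cd8a at least 14.5-fold (0.00598; a difference of 2.55 with normexp), with no BM array above background. Cd3g, Ncr1 and Il2rb were above background on fewer than 2 arrays. Myeloid markers gave 6 risers (35.3% against 21.2% of all genes) and 2 fallers (11.8% against 17.3%) among 17. With probe GC content centred, 5 were higher and 4 lower, with a median of -0.22. Csf1r, the M-CSF receptor, rose by 4.05 ± 0.46 (0.00776; 1.74 and 1.90 by its other probes) and the neutrophil protease Elane by 2.53 ± 0.20 (0.00598), while the lysozyme Lyz1 fell from -0.44 and -0.51 to -5.16 and -5.31 (-4.76 ± 0.16, 0.00598; above background on 1 FL array). Their summed level was 6.60 and 6.63 in BM and 7.62 and 7.11 in FL. The neutrophil genes S100a8, S100a9 and Mpo were above background on fewer than 2 arrays. The part of other cells in any difference was not tested.

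In all, 192 genes rose and 74 fell with a measured difference of at least 16-fold, those above included. The counts also take in genes above background on no array of a tissue. For such genes a difference of 16-fold is not established where the bound is lower, as for Cd8a (at least 14.5-fold higher) and H2-Aa (at least 5.88-fold lower). Pxdn, a matrix peroxidase, rose from -2.62 and -2.38 to 4.65 and 5.05 (7.35 ± 0.22; 5.73 by its other probe), Ccdc40, of cilia, by 6.75 ± 0.19 and Scimp, an adaptor of antigen-presenting cells, by 5.38 ± 0.18 (all adjusted p = 0.00598). Sntg2, a syntrophin, was above background on no BM array and was at least 274-fold higher in FL, Sln, which inhibits the SERCA pump, at least 57.8-fold and Chrna9, a nicotinic receptor subunit, at least 57.6-fold. In the other direction, Mpzl2, an adhesion protein, fell from 3.85 and 4.40 to a mean of -1.89 (-6.01 ± 0.26), the remodeller Chd3 from 3.20 and 2.97 to -2.96 and -2.86 (-6.00 ± 0.17) and with them the integrin chain Itgb3 (-5.14 ± 0.15; other probe above background on no FL array) and osteopontin, Spp1 (-4.66 ± 0.21; all 0.00598). Chd7, of the same family as Chd3, rose by 1.90 ± 0.15. Pgr, the progesterone receptor, was at least 37.6-fold and Ccn2, a matrix growth factor, at least 26.8-fold lower, each with no FL array above background. Ccn2 is also made by stromal cells. With normexp these 5 differences were smaller, at 5.80 for Sntg2, 3.93 for Sln, 3.78 for Chrna9, -2.62 for Pgr and -2.39 for Ccn2, each still called.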

How the data were processed

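Each sample was 1 array. Per the file headers, the deposited intensity values were extracted with Agilent Feature Extraction 9.5.3.1, which subtracts background and writes a processed signal per spot, with probe positions on mm9. The authors' normalized table was not used. From the processed signals, 1377 control spots were left out, copies of a probe were averaged, and log2 values were set relative to each array's 75th percentile. Probes well above background on at least 2 of the 4 arrays were kept, the probe of highest mean level stood for a gene, and names came from RefSeq (GRCm38.p6) by accession, symbol or synonym, with the file's name for 5342 of 26133 probes.

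FL and BM were compared with limma 3.58.1 (lmFit, eBayes) in R 4.3.3, with Benjamini-Hochberg adjustment over all 21076 genes, so each adjusted p is limma's. The steps were tested on simulated data. Nothing in the labels says that the arrays are separate cultures beyond separate sorts, so p-values measure the spread between these arrays. The number of arrays limits the precision. Replicate numbers did not pair arrays across tissues (correlation of same-numbered deviations -0.03). The contrast and all gene lists were chosen with earlier results of these data known. Named genes were those of the study's question, up to 6 members of each list by smallest adjusted p (2 where none was called), the 12 largest rises and 12 largest falls with a symbol above background on all arrays and called under both scalings, and the 6 largest bounds in each direction. Others, and genes given as not called or not above background, were chosen after their values were seen. Alternatives covered scaling, background correction, filters, probe choice, model and arrays left out. A few genes are not reported here.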

Additional observations from a re-analysis of the deposited data

How the results depend on the processing

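Of 159 genes tracked, 153 were called, and 148 of those kept their direction in every setting that tested them. The filter for signal well above background on all 4 arrays tested 136 of the 159. In every scaling, background, filter and probe setting that tested them 130 were still called, and 50 lost their call against a minimum log2 difference of 1. Most tracked genes were chosen by adjusted p or size of difference in these same data, so a kept direction is no separate support. Against 7619 higher and 3742 lower genes, the higher count moved beyond 1.5 times with quantile scaling (4486), normexp background correction (11745), no filter on dim probes (12047) and, among settings chosen after seeing the data, cyclic loess (4816) and quantile scaling with GC bins centred (3940). A test against a minimum log2 difference of 1 left 2055 higher and 463 lower. Leaving out 1 array gave 1987 to 9703 higher and 403 to 5485 lower genes. The low ends came without a BM array (2016 and 436 without replicate 1, 1987 and 403 without replicate 2), and lower calls reached 5485 without FL replicate 1. In these fits the lone array is assumed to vary like the other group. With the replicate number as a block, 7002 genes were higher and 2946 lower, although the numbers pair no arrays.

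Reversed differences were Rag2 with median scaling (-0.040) and, with normexp, Igf2bp2 (1.02, called), Meg3 (0.23), Procr (0.81, called), Nlrc4 (0.39), Pdgfra (0.18) and Vcam1 (0.23). Normexp here added 50 intensity units to every spot, and the 75th percentile was 485 and 271 in FL against 1925 and 2137 in BM. Over all genes its median difference was 0.81. The part of this offset in the values with normexp was not tested. With 1 array left out, Igf2bp2 ranged from -0.95 to 0.13 and H2-Ab1 from -0.41 to 0.078. The cause was not tested. Signals near background limit the dim genes, of which 264 were not above it on any BM array and 881 on any FL array.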
